A study of Mus musculus with 6 samples.

Results

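The miR-297, miR-466, miR-467 and miR-669 families are rodent microRNAs (miRNAs) whose mature sequences are built largely from simple UG or CA repeats. They were taken as every row of the deposited miRNA table named for one of these families with a lower-case letter after the family number and any suffix, which gave 71 of 1626 rows. The miR-466 and miR-669 families had 27 rows each, miR-467 had 13 and miR-297 had 4. The libraries are miRNA-seq of C57BL/6J fetal liver, 3 of wild-type genotype (WT 1, WT 2 and WT 3) and 3 of a miR-144/451-/- genotype, a knockout of the locus that encodes the erythroid miRNAs miR-144 and miR-451 (KO 4, KO 5 and KO 6). Each sample is labelled miRNA-Seq of total RNA made with a small RNA library kit, while the series' design text names HITS-CLIP, which sequences Argonaute-bound RNA; the counts are read here by the sample labels. The labels name no other allele and no treatment in either group, and they do not give the embryonic day. The labels do not say that every library is a different embryo, so each p-value here is about library-to-library spread and that spread may be technical.

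Most genes of these families lie in 1 large intron of Sfmbt2, a Polycomb-group gene that in mouse is imprinted and expressed from the paternal copy in extraembryonic tissue. The cluster is found in rats and mice but not in humans, and it is best known from placenta and from embryonic stem cells, where its miRNAs are abundant. Each hairpin can give a mature miRNA from its 5p or its 3p arm, and bases 2 to 8 of that miRNA, the seed, pair with target messenger RNAs.

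In the GENCODE annotation (GRCm38), 81 hairpins carry names of these families, and 71 of them lie in intron 10 of the Sfmbt2 transcript that GENCODE numbers first, on the plus strand of chromosome 2. Sfmbt2 spans 10370510 to 10595253, the intron spans 10461473 to 10523944, and its hairpins run from 10466663 to 10518279, a stretch of 51617 bases. These 71 hairpins comprise 5 of miR-297, 23 of miR-466, 14 of miR-467 and 29 of miR-669, with a median gap of 209 bases between neighbours. The median distance between successive starts within a family was close to the same in 3 of them, 2424 bases for miR-466, 2450 bases for miR-467 and 2421 bases for miR-669. For miR-467, 11 of 13 such distances lay between 2000 and 3000 bases, against 9 of 22 for miR-466 and 13 of 28 for miR-669. The miR-467 hairpins began 7.27 kb and ended 41.0 kb after the first hairpin, while miR-669 hairpins lay from 0.566 kb to 51.5 kb.

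**Figure D1:**
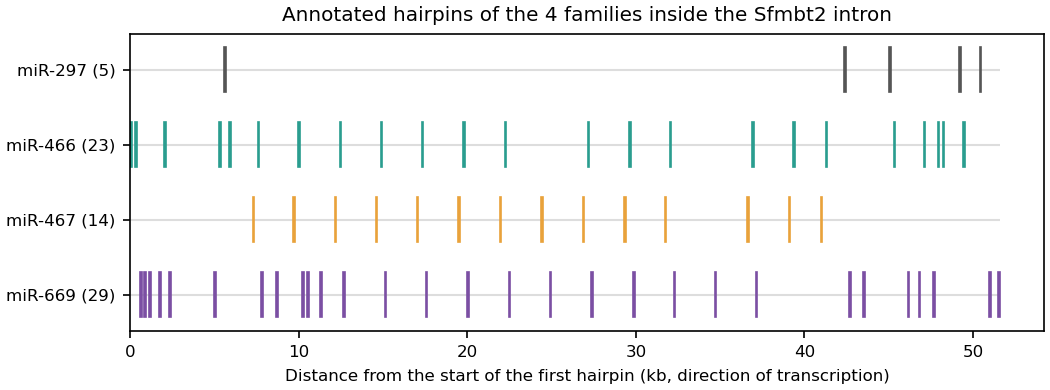
Position of the 71 annotated hairpins of the Sfmbt2 intron, 1 line per family, as distance in kb from the start of the first hairpin in the direction of transcription (each bar is 1 hairpin, number per family in parentheses). Most miR-467 hairpins are evenly spaced in the middle of the array, and 4 of the 5 miR-297 hairpins lie at its far end.

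The other 10 hairpins are scattered over chromosomes 3, 5, 7, 9, 10, 11 and 13. Mir466q lies in an intron of Tnik on the same strand. Mir467f (Fxr2), Mir466i (Cdk13), Mir466k (Gm37240), Mir669n (Slc30a7) and Mir467g (Grk4) lie in introns of genes on the opposite strand, and Mir466j, Mir466f-4, Mir297-1 and Mir467h lie in no annotated gene. By name, 55 of the 71 rows belong to hairpins of the intron alone, 9 to hairpins elsewhere and 5 to both, and the 2 arms of miR-466a matched no hairpin. A hairpin named Mir466, with no letter, lies in the intron at 10507918 to 10507990 and was assigned to no row.

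Mature sequences from RefSeq (GRCm38.p6) matched 8 rows, all from hairpins outside the intron. They are shown for the 2 kinds of repeat found among these 8 and for their seeds. The rows of the intron alone had no sequence to compare, so seeds shared among them were not examined. Each is written 5′ to 3′ with the seed in capitals.
miR-466j: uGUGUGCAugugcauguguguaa
miR-466k: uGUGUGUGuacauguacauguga
miR-467h: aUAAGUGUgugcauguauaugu
miR-669n: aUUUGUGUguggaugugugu
miR-466i-3p: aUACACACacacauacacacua
miR-466q: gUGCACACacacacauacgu
miR-467f: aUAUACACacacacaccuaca
miR-467g: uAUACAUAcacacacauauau

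The first 4 are rich in UG and the last 4 in CA, and both kinds occur within miR-466 and within miR-467, so the family number does not fix the repeat. All 8 seeds differ from each other. Of the seeds, only that of miR-467h was found in a mature miRNA outside the families, miR-668-5p. The run acacacacacauac is common to miR-466i-3p and miR-466q, and auacacacacaca to miR-466i-3p and miR-467f, 14 and 13 bases in turn. The letters UGUGUGU, read along the mature strand, were found in 11 of 1679 mouse mature miRNAs in that table (0.655%) and in 3 of the 8 members, and ACACACA, which is their reverse complement, in 5 of 1679 (0.298%) and in 4 of the 8. They place miR-466k, miR-466j and miR-669n in the first kind, and miR-466q, miR-467g, miR-467f and miR-466i-3p in the second.

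Several rows carried the same counts under different names. Linking rows whose counts lay within 1% of each other in every library joined 20 of the 71 rows into 7 shared signals and left 58 separate signals. Because links chain, the widest difference inside a shared signal was 1.31%. The counts of miR-467c-3p and miR-467e-3p were identical, as were those of miR-669d-2-3p and miR-669l-3p. A single signal crossed families: miR-297a-5p with miR-466m-5p and miR-466f. The largest signal held 5 rows, miR-466a-5p, miR-466b-5p, miR-466e-5p, miR-466p-5p and miR-466k, the last of which has its hairpin on chromosome 3. Just outside the 1% limit were miR-669c-5p with miR-669n, at 1.22%, and miR-669d-5p with miR-467h, at 1.23%. The sources used here do not say how reads matching several hairpins were counted, so a value for these rows belongs to the sequence group and not to 1 hairpin. No row outside the families with a mean of at least 10 counts lay within 5% of such a member. Below, a shared signal is called by its most abundant row.

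The libraries held 16243894 to 27089133 counts. The deleted locus took 17.6% to 24.1% of the counts in WT and at most 0.0231% in KO, which matches the labels. Because that fraction is missing from KO libraries, levels are given as CPM, counts relative to library size after TMM scaling, which sets the bulk of miRNAs equal between libraries. Defining miRNAs of the labelled tissue were present, with miR-122-5p, the hepatocyte miRNA, at 29326 to 117809 CPM and miR-486a-5p, an erythroid miRNA, at 43836 to 82230 CPM. An intact fetal liver mixes these cells, and in bulk RNA fewer cells of a type and less RNA per cell cannot be told apart.

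The 4 families together were a small part of the fetal liver miRNAs, and whether they were lower in KO depended on the scale. Taking 1 row per signal, they made up 0.280% (WT 1), 0.266% (WT 2) and 0.216% (WT 3) of all counts, and 0.302% (KO 4), 0.254% (KO 5) and 0.229% (KO 6). The groups overlapped, with means of 0.254% ± 0.0335 in WT and 0.261% ± 0.0371 in KO (SD, n = 3 each, as for all means ± SD below). After TMM scaling the sums were 3175, 2985 and 2475 CPM in WT and 2471, 2310.1 and 2107 CPM in KO. Here the groups did not overlap, although WT 3 and KO 4 were nearly equal, and the KO mean of 2296 ± 182 CPM was 0.798 times the WT mean of 2878 ± 362 CPM. As a share of the counts outside the deleted locus, the WT libraries held 0.369%, 0.323% and 0.271% and the KO libraries 0.302%, 0.254% and 0.229%, and KO 4 lay above WT 3.

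**Figure D2:**
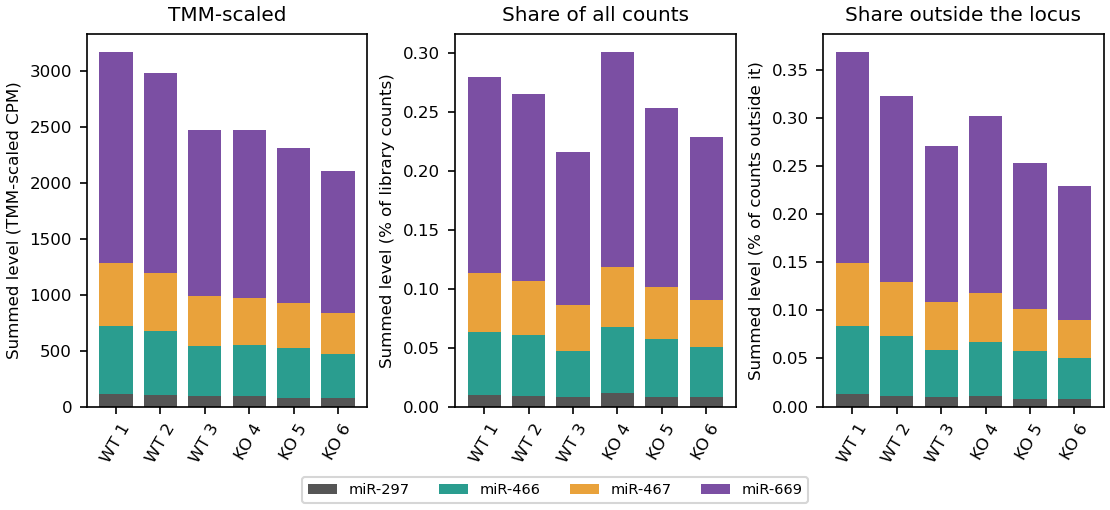
Summed level of the 4 families in each library, 1 row per signal, stacked by family, on 3 scales (TMM-scaled CPM, percent of all counts, percent of counts outside the deleted locus). The KO libraries are lower than every WT library on the first scale only, and miR-669 fills more than the other families together in each bar.

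The order of the libraries within a genotype was the same on all 3 scales, and several cell type marker sums moved with it. WT 1 and KO 4 had the highest sums in their genotype, and they also had the highest sums of the 3 muscle miRNAs (miR-1a-3p, miR-133a-3p and miR-206-3p), at 400.4 and 83.5 CPM against 13.3 to 20.5 CPM in the other libraries. WT 3 and KO 6 had the lowest sums and the highest hepatocyte sums (4 of 4 miRNAs found), at 136713 and 106563 CPM against 37584 to 60172 CPM in the others. The same libraries had the highest endothelial sums (2 of 2 miRNAs found), 10524 and 11047 CPM against 7323 to 7870 CPM, and the highest mesenchymal sums (4 of 4 found), 3043 and 2887 CPM against 1979 to 2649 CPM. Of the mesenchymal miRNAs, miR-143-3p and miR-145a-5p followed this order. miR-199a-3p and miR-214-3p were instead highest in WT 1, at 849 and 37.9 CPM against 772 and 29.6 CPM in WT 3. The lymphoid sum (2 of 2 found) moved with genotype, at 189.6 to 210.3 CPM in WT and 134.4 to 167.4 CPM in KO, without overlap. Most of it was miR-155-5p, which did not overlap. miR-150-5p did overlap, at 30.9, 51.9 and 65.8 CPM in WT and 22.7, 29.6 and 42.3 CPM in KO. Within each genotype the erythroid sums (4 of 4 found) were lowest in WT 3 and KO 6, at 345169 and 148620 CPM. These sums include the deleted miR-451a and miR-144-3p, but miR-486a-5p and miR-16-5p were also lowest there. The myeloid sums (2 of 2 found) were lowest in the same libraries, at 37145 and 28815 CPM, although miR-223-3p was lowest in KO 4. The part of these cell types in the family levels was not tested. The imprinted miR-379 to miR-410 cluster (65 rows) differed by 2.99-fold between the highest and lowest WT library and by 2.16-fold in KO, and 10 rows of single imprinted loci by 1.52-fold and 1.33-fold. The corresponding ranges for the 4 families were 1.28-fold and 1.17-fold. In pattern across the 6 libraries, the rows outside the families most like their sum were miR-5121 (Pearson r = 0.99), miR-1187 (0.956), which also holds UGUGUGU, and miR-425-5p (0.935). This is a description over 6 libraries that share their scaling factors.

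miR-669 dominated the sum. It made up 59.8% ± 0.262 of it in WT and 60.5% ± 0.351 in KO, followed by miR-466 at 18.8% and 18.9%, miR-467 at 17.8% and 17.2%, and miR-297 at 3.52% and 3.53%. Most of the miR-297 part was the signal that miR-297a-5p shares with miR-466m-5p and miR-466f, and without it miR-297 held 0.702% and 0.651%. The makeup of the sum was thus close in the 2 genotypes. By arm, 5p rows held 70.2% ± 2.6 in WT and 71.2% ± 2.32 in KO and 3p rows 24.7% ± 2.59 and 23.4% ± 2.48. The level was concentrated in few signals: 8 of 58 averaged at least 100 CPM and together held 56.4% of the sum, 24 averaged 10 to 100 CPM with 41.0%, and the other 26, 13 of them under 1 CPM, held the rest. The most abundant, miR-669l-5p, ranked 169th of the 1626 rows.

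No member passed the edgeR quasi-likelihood test at a Benjamini-Hochberg adjusted p of 0.05 (0 of 64 tested rows; 7 rows were too low to test), beside 4 of 873 miRNAs outside the deleted locus (0.458%). DESeq2 and limma-voom also called 0 members. At an unadjusted p under 0.05, 4 rows (3 signals) were lower in KO, against 12 of 873 miRNAs (1.37%), members included. Of the tested rows, 60 had a fold below 0 and 4 above, with a median log2 fold of -0.30, beside 457 below and 416 above with a median of -0.01 over all 873. By signal this was 48 below and 3 above of 51. The 4 rows above 0 reached the filter on low counts in the 3 KO libraries and in 0 WT libraries, so the filter fixed their direction. The 57 rows at or above the filter level in all 6 libraries were all below 0. The direction rests on scaling: with no scaling factor the median was 0.07, 24 rows were below 0 and 40 above, while the median of all miRNAs moved to 0.34. Relative to the median of all miRNAs, which a scaling factor moves along with the members, the families stood at -0.28 with TMM scaling, -0.16 without WT 1, -0.18 without KO 6, -0.45 without KO 4 and -0.49 without WT 3. Leaving out WT 3 moved the median to -0.46 and the number of rows with p under 0.05 to 14, and leaving out KO 4 moved the median to -0.47. Without WT 1 the median was -0.20. The number of rows with p under 0.05 was 0 without WT 1 or KO 6, and 1 without WT 2, KO 4 or KO 5. These counts without 1 library are of rows, several of which share a signal. The matching shares over all miRNAs are not given here, so the counts are not read as particular to the families.

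Some members separated the libraries by genotype. In 12 rows (9 signals) all 3 KO values lay below all 3 WT values, against 5.61% of the 873 miRNAs, and in 4 rows (3 signals) all lay above, against 15.9%. These 4 are the rows whose direction the filter fixed. The 5 miR-467 rows of the 5p arm, 4 signals, were all among the lower ones, as were 3 miR-669 rows of that arm and 4 rows of the 3p arms. Which side of each other the groups fall on also moves with the scaling factor.

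The miR-467 family showed the lowest median over rows among the 4, at -0.43 on the log2 fold scale. The others were at -0.39 for miR-297, -0.29 for miR-669 and -0.28 for miR-466. By signal, miR-467 at -0.418 was close to miR-297 at -0.395, with miR-669 at -0.291 and miR-466 at -0.270. The 3p signals of miR-669 and miR-466 alone had medians of -0.42 and -0.38, and their 5p signals -0.28 and -0.27. miR-467b-5p, the most abundant miR-467 signal and shared with miR-467a-5p, is studied as a repressor of lipoprotein lipase. It measured 208, 178 and 178 CPM in WT and 149, 142.998 and 129.5 CPM in KO. All KO values were lower, and the log2 fold was -0.42 (SE 0.17, adjusted p = 0.39, edgeR).

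miR-467c-5p measured 110.0, 114 and 97.9 CPM in WT and 87.6, 72.0 and 78.2 CPM in KO, again without overlap, with a log2 fold of -0.44 (SE 0.18, adjusted p = 0.39, edgeR). miR-467d-5p followed at 20.2, 15.2 and 14.5 CPM in WT against 12.4, 12.1 and 12.5 CPM in KO (log2 fold -0.43, adjusted p = 0.499, edgeR). The KO values were close together, while WT 1 lay above the other WT libraries, and without WT 1 the log2 fold was -0.27. On the 3p arm the groups overlapped: miR-467a-3p measured 36.2, 32.5 and 19.6 CPM in WT and 20.1, 26.1 and 19.0 CPM in KO, and the signal of miR-467c-3p, miR-467d-3p and miR-467e-3p had 33.9, 29.6 and 17.7 CPM against 18.9, 23.6 and 17.4 CPM. WT 3 was at KO level in both. Of the members with no arm in the name, miR-467h, one of the sequences above, had 69.8 ± 7.39 (WT) and 60.1 ± 7.69 CPM (KO), and miR-467g 3.94 ± 1.46 and 3.72 ± 0.401 CPM. Neither separated the groups.

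The 3 miR-669 rows of the 5p arm with the highest level all come from the intron and had the highest value in WT 1. miR-669l-5p measured 361, 318 and 284 CPM in WT and 293, 255 and 249.7 CPM in KO. For miR-669a-5p, a miRNA encoded by several hairpins of the cluster and studied as a repressor of MyoD, the values were 324, 290.2 and 256 CPM and 259.8, 227 and 225 CPM. miR-669e-5p measured 275, 239 and 209.9 CPM and 217.8, 186 and 189 CPM. In each of these 3, KO 4 lay above WT 3, so the groups overlapped, and the log2 folds were -0.27, -0.29 and -0.29 with adjusted p of 0.598, 0.576 and 0.598 (edgeR). These folds moved with single libraries: without WT 1 they were -0.18, -0.20 and -0.18, without WT 3 -0.42, -0.44 and -0.45, and without KO 4 -0.43, -0.445 and -0.45.

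The 2 most abundant miR-669 signals of the 3p arm had lower means in KO, with overlap. miR-669f-3p was at 144.3, 155.4 and 102 CPM in WT and 103, 117 and 78.3 CPM in KO, and miR-669a-3p at 118, 132.9 and 89.0 CPM and 89.3, 97.2 and 65.6 CPM. WT 2 was highest and KO 6 lowest in both, and WT 3 fell inside the KO range. On the log2 scale the folds were -0.43 (SE 0.25) and -0.43 (SE 0.24), with adjusted p of 0.575 and 0.564 (edgeR). miR-669h-5p, a minor row, measured 3.66, 4.02 and 3.70 CPM in WT and 2.82, 2.38 and 3.22 CPM in KO, without overlap (log2 fold -0.43, adjusted p = 0.513, edgeR). miR-669n, whose sequence is printed above, had 54.1 ± 8.45 (WT) and 44.0 ± 5.54 CPM (KO).

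**Figure D3:**
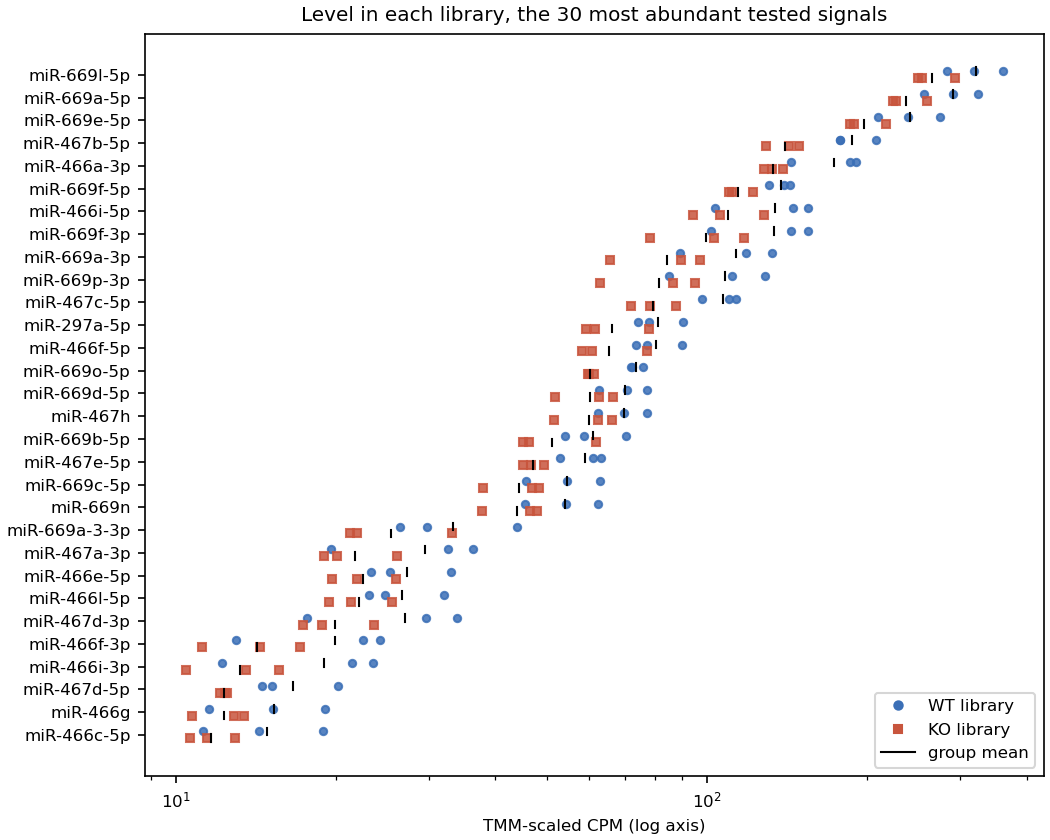
TMM-scaled CPM (log axis) of the 30 most abundant tested signals in each library, circles for WT, squares for KO, black ticks for group means. Each signal's KO mean lies below its WT mean, and the points of most signals overlap, while those of miR-466a-3p, miR-467b-5p, miR-467c-5p, miR-467d-5p, miR-467e-5p, miR-669f-5p and miR-669o-5p do not.

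For miR-466, the most abundant signal was that of miR-466a-3p, miR-466b-3p and miR-466d-3p. It measured 190.7, 186 and 143.9 CPM in WT and 139, 132.8 and 128 CPM in KO, without overlap, with a log2 fold of -0.38 (SE 0.18, adjusted p = 0.509, edgeR). The margin between WT 3 and KO 4 was narrow. miR-466i-5p, from a hairpin in an intron of Cdk13, measured 145.04, 155.15 and 104 CPM in WT and 106, 128 and 94.4 CPM in KO, so both KO 4 and KO 5 lay above WT 3. miR-466f-5p with miR-466j was at 80.2 ± 8.56 (WT) and 65.5 ± 10.3 CPM (KO), and miR-466f-3p at 19.9 ± 6.09 and 14.3 ± 2.95 CPM. miR-466g had 15.3 ± 3.79 and 12.4 ± 1.44 CPM, and miR-466q 2.03 ± 0.80 and 1.69 ± 0.48 CPM. All of these overlapped.

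Among the miR-297 rows, which have the fewest reads, the 2 arms of miR-297a differed by level. The signal of miR-297a-5p measured 90.3, 78.0 and 74.2 CPM in WT and 77.9, 59.3 and 61.5 CPM in KO, with overlap. miR-297a-3p had the lowest p of any member. It measured 11.5, 11.7 and 9.91 CPM in WT and 7.61, 8.40 and 7.55 CPM in KO. The groups were apart, with a log2 fold of -0.49 (SE 0.18, adjusted p = 0.349, edgeR). miR-297b-5p measured 7.17 ± 1.02 (WT) and 5.64 ± 0.909 CPM (KO), with overlap.

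**Figure D4:**
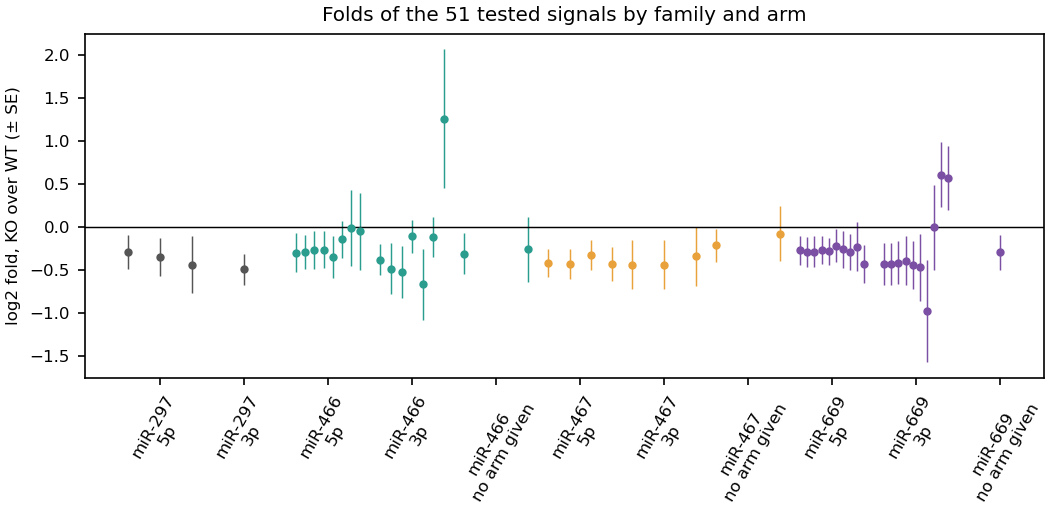
log2 fold of KO over WT with its standard error for the 51 tested signals, by family and arm, most abundant first within each group. Most points lie between -0.5 and 0 and the 3 signals above 0 are low in abundance.

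The members above 0 were all under 1 CPM. The signal of miR-669d-2-3p and miR-669l-3p measured 0.492, 0.373 and 0.451 CPM in WT and 0.807, 0.497 and 0.690 CPM in KO, and miR-669d-3p 0.492, 0.373 and 0.451 CPM and 0.756, 0.497 and 0.690 CPM. miR-466l-3p, described as a miRNA that binds the AU-rich element of the interleukin-10 messenger RNA, had 0 counts in WT 3, where 3 counts would be 0.15 CPM, and 0.328 and 0.414 CPM in the other WT libraries, against 0.555, 0.497 and 0.766 CPM in KO. No test is given for these rows, which passed the filter on low counts through the KO libraries alone. Of the 7 untested rows, miR-669g had 0.445 ± 0.0488 (WT) and 0.497 ± 0.138 CPM (KO), and the others were also under 0.5 CPM in both groups.

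Arm use was examined within each hairpin name as the log2 ratio of 5p to 3p counts, each with 1 added. A ratio within a library does not depend on the scaling factor. Both arms were listed for 24 hairpin names and 21 reached a mean of 10 counts, of 263 in the whole table. The 5p arm was the higher in 16 of the 21 and the 3p arm in 5; miR-466a and miR-466b share both arm signals, and counted once they leave 16 and 4 of 20. For the 21 the median log2 ratio was 2.13, beside 0.03 over the 263. The span was wide: on average the 5p arm exceeded the 3p arm 243-fold for miR-669e and 112-fold for miR-669d, and by a log2 ratio of 8.97 for miR-669l. At the other end the 3p arm exceeded the 5p arm 258-fold for miR-466d and 15.8-fold for miR-466n. The lesser arm of each of these hairpin names averaged under 1 CPM in both groups, so these folds rest on few counts. miR-669f used both arms nearly evenly, at 1.11 to 1. Several of these arms share counts with other hairpins (miR-669l-3p with miR-669d-2-3p, miR-466d-3p with miR-466a-3p and miR-466b-3p), so a ratio compares 2 sequences and need not describe 1 hairpin.

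**Figure D5:**
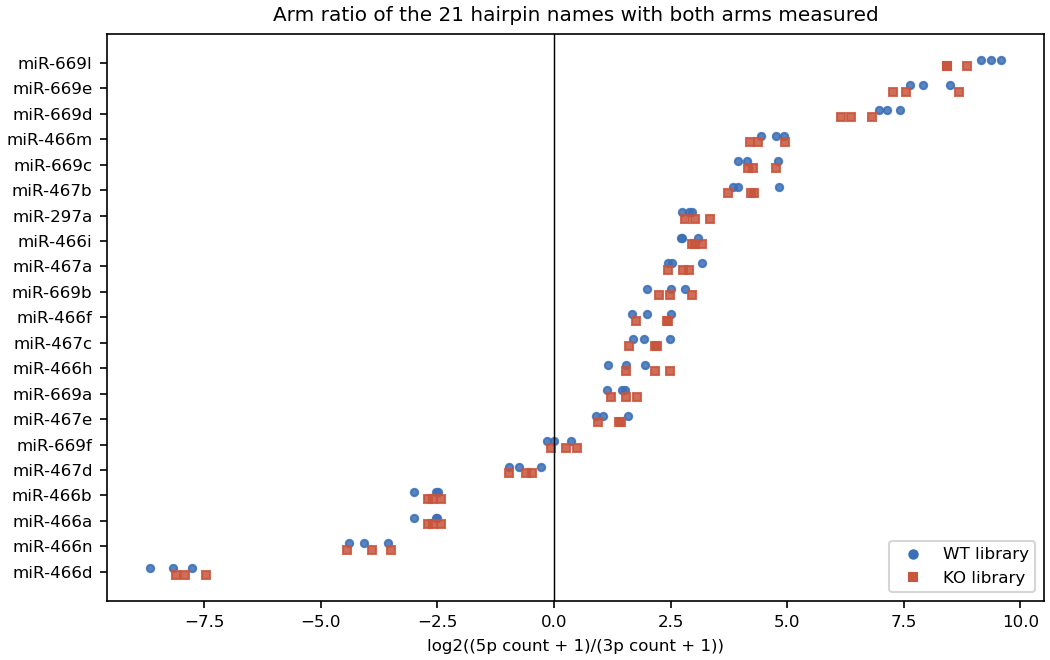
log2 ratio of 5p to 3p counts (1 added to each) for the 21 hairpin names with both arms measured, circles for WT libraries and squares for KO. The vertical line marks equal use of the arms; 16 hairpin names lie to its right on average and 5 to its left, from miR-669l to miR-466d.

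No hairpin changed its arm ratio between genotypes by limma at an adjusted p of 0.05, among 21 of the families or among 263 in all (0%). The largest differences in KO against WT were those of miR-669l and miR-669d, at -0.80 and -0.73 on the log2 scale. Both rest on 3p rows under 1 CPM that had 9 counts in every WT library. These rows reached the mean of 10 counts through KO 4 and KO 6. The minimum thus favoured a lower ratio in KO, so no test is given for these 2. Over the 21 hairpins, 13 ratios were higher and 8 lower in KO, with a median difference of 0.10, beside 0.01 over the 263. The 8 include miR-669l and miR-669d, and the 13 count miR-466a and miR-466b separately although they share both arm signals. For miR-669l the log2 ratios were 9.37, 9.59 and 9.15 (WT) and 8.42, 8.85 and 8.42 (KO), a separation that the minimum also favoured. For miR-466n, which favours 3p, they were -3.56, -4.40 and -4.08 against -4.43, -3.91 and -3.51, with overlap. Summed over the families, 5p rows exceeded 3p rows by 2.88, 2.46 and 3.26 times in WT and by 3.22, 2.61 and 3.37 times in KO.

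The table also held 7 miRNAs outside the families with the letters UGUGUGU, 4 with a log2 fold below 0 and 3 above. miR-574-5p measured 111 ± 46.6 (WT) and 87.3 ± 28.6 CPM (KO), miR-32-3p 21.7 ± 4.10 and 19.9 ± 2.58 CPM and miR-1187 17.1 ± 0.737 and 15.5 ± 0.979 CPM. Their log2 folds were -0.35, -0.13 and -0.14, and that of miR-672-5p was -0.45. The folds of miR-3097-5p, miR-3082-5p and miR-294-3p were 1.54, 0.26 and 0.18. miR-3097-5p, at 0.552 ± 0.338 (WT) and 1.59 ± 0.615 CPM (KO), was higher in every KO library than in any WT library. No fold of the 7 passed the test, with adjusted p from 0.34 (miR-3097-5p) to 0.902 (miR-32-3p) (edgeR).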

How the data were processed

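Small RNA libraries (NEXTflex kit, HiSeq2000) were made from 6 fetal liver RNA samples, per the labels. The authors deposited 1 table of read counts per mature miRNA with the percent of each library, and the deposited percent equals the count over the library total. Cutadapt is named in the submitters' processing notes. The aligner, genome build and handling of reads matching several hairpins are not given in the sources used here. Whole-table tests used edgeR 4.0.16 in R 4.3.3 (TMM, filterByExpr, quasi-likelihood F-test, Benjamini-Hochberg over 876 miRNAs) with DESeq2 1.42.0 and limma 3.58.1 (voom) as alternatives. Other settings were RLE scaling, no scaling factor, removal of the deleted locus before scaling, no filter on low counts, near-identical rows collapsed and each library left out in turn. The standard error is the absolute log2 fold over the square root of F. Arm ratios used limma on log2((5p + 1)/(3p + 1)) for hairpins with at least 10 counts per arm on average. Intervals are not given for single counts; 3 counts were taken as the floor. The members and lists were chosen with earlier results of these data known. Named rows are the 2 most abundant signals per family and arm, the 5 lowest p, the 3 highest and lowest non-overlapping folds and the extreme arm ratios, at most 30. Hairpin positions are from GENCODE M21 (GRCm38).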

Additional observations from a re-analysis of the deposited data

How the results depend on the processing

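No paired analysis was possible because the replicate numbers differ between the genotypes. Calls among miRNAs outside the deleted locus numbered 4 with TMM and 1 with RLE scaling, the locus removed before scaling or near-identical rows collapsed. They numbered 12 with DESeq2, 58 with no scaling factor and 0 to 1 without 1 library. No setting called a member. Rows below 0 numbered 24 with no scaling factor and 55 to 60 without 1 library. Rows above 0 numbered 40 under no scaling factor, 0 with the locus left out before scaling (58 rows tested; all 4 rows above 0 were no longer tested), 9 with no filter, 8 with DESeq2 and 6 to 11 without 1 library. The median log2 fold was 0.073 with no scaling factor and -0.474 to -0.200 without 1 library. The families' mean share in WT was 0.337% with all rows summed and 0.321% without the locus in the total, and in KO 0.345% with all rows. Hairpins with a changed arm ratio over the whole table numbered 0 to 1 without 1 library, the 1 being without WT 3. With no scaling factor 15 of 29 named rows turned positive: miR-297a-5p 0.0842, miR-297b-5p 0.0225, miR-466i-5p 0.0609, miR-466f-5p 0.0806, miR-466g 0.0542, miR-466q 0.0852, miR-467h 0.153, miR-467g 0.286, miR-669l-5p 0.0956, miR-669a-5p 0.0764, miR-669n 0.0694, miR-466d-5p 0.34, miR-466n-5p 0.295, miR-466n-3p 0.259 and miR-669e-5p 0.0805. With limma-voom miR-466d-5p was 0.06 and miR-466n-5p 0.009. Leaving out 1 library gave -0.532 to 0.104 for miR-466q, -0.405 to 0.188 for miR-467g, -0.277 to 0.352 for miR-466d-5p and -0.327 to 0.309 for miR-466n-5p, all 4 highest without WT 1. The cause of these changes was not tested beyond the scaling itself. Leaving out 1 library moved the fold of 23 of 29 named rows by over 1.5 times, 17 of them without WT 3, 15 without KO 4 and 12 without WT 1. Rows under about 1 CPM rest on few counts.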
